A study of Mus musculus with 1187 samples.

Results

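Drug efflux and organic anion transport at the blood-brain barrier was described through 8 transporter genes out of the 46517 genes of the table: the efflux pumps Abcb1a, Abcg2 and Abcc4, the organic anion transporting polypeptides Slco1a4, Slco1c1, Slco2b1 and Slco1a5, and the organic anion exchanger Slc22a8. They were chosen by name, as known transporters of drugs and organic anions at the brain endothelium, and all 8 had a row. The cells came from brains of 3-month-old C57BL/6 mice carrying the Pdgfb ret allele and the Cldn5-GFP and Cspg4-DsRed reporters. Cldn5 is active in endothelium and Cspg4 in pericytes. GFP-positive, DsRed-negative endothelial cells were sorted singly into plates, and a full-length Smart-seq2 library was made from each cell. The labels name 597 cells from pericyte-deficient Pdgfb ret/ret mice and 590 cells from control Pdgfb ret/+ mice. The ret allele removes the motif by which the growth factor PDGF-B is held near the endothelium that makes it, in every cell of the animal, and the control mice carry 1 copy of it. No label names an animal, so it is not known how many mice stand behind a plate.

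The study asked how endothelium short of pericytes differs from control endothelium. The count table names its columns by plate and well, while the labels only number the cells, so no cell could be given a genotype, and ret/ret was not compared with ret/+. The 1187 cells were treated as 1 pooled sample on 4 plates (521, 522, 523 and 524). Plate may coincide with genotype or animal, and these cannot be told apart here. With 1 sample there is no test and no p-value; counting intervals are given, and the spread over plates is the broader measure of error. The table held 418924921 reads assigned to genes, between 100779 and 584112 per cell, with a median of 360947. The sort was checked by Cldn5, the main claudin of the endothelial tight junction, which had a read in 100% of cells, while 22 of the 1187 cells carried at least 3 markers of another cell type at 100 CPM or more (CPM is a gene's count scaled to the total of gene-assigned reads).

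Brain endothelium limits drug entry in part with ATP-driven pumps. P-glycoprotein, encoded in mouse brain capillaries mainly by Abcb1a, and the breast cancer resistance protein, encoded by Abcg2, sit in the membrane that faces the blood and return lipophilic drugs to it, and Abcc4 exports organic anions and cyclic nucleotides. The Slco genes encode exchangers that carry bile salts, steroid conjugates and thyroid hormones, and Slc22a8 encodes the organic anion transporter OAT3, which in rodents removes anionic drugs and metabolites from brain to blood.

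Slco1a4, Slco1a5 and Slco1c1 lie close together on chromosome 6, and the promoters of Slco1a4 and Slco1a5 are alike at 1 of the 2 starts listed for Slco1a5. The pair is shown because Slco1a4 was among the most abundant transcripts of these cells and Slco1a5 was at 0 in most of them. Both are from RefSeq on GRCm38.p6, minus strand, from 250 bases before to 50 bases after the start of transcription: chr6:141856171-141856470 for Slco1a4 and chr6:142278825-142279124 for the inner of the 2 starts listed for Slco1a5. Capitals mark runs of at least 8 identical bases in the alignment of the 2 sequences.
Slco1a4: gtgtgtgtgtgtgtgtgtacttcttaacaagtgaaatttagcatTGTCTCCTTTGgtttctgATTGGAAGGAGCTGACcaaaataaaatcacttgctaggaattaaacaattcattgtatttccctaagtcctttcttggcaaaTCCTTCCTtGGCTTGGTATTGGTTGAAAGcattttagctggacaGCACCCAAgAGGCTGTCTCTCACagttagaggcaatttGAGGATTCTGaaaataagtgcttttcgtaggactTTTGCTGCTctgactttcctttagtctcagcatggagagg
Slco1a5: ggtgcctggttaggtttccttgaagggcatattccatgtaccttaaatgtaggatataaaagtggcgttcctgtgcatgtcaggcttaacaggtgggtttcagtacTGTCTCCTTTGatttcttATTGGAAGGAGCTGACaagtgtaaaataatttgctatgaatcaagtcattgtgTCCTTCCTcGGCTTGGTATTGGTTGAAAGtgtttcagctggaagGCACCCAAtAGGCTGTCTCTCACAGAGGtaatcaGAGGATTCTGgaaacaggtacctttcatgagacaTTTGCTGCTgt
Of 238 aligned bases, 190 were identical (79.8%), whereas the promoter at the outer Slco1a5 start (chr6:142322932-142323231) aligned with that of Slco1a4 over 2 bases. The letters CCAAT, searched on both strands, occurred 2 times in the Slco1a4 sequence and 3 times in that of Slco1a5, and in 37.4% of the 32851 promoters of the same length. The Slc22a8 promoter is shown because this gene differed between the ends of both vascular scores described below (chr19:8592932-8593231, plus strand, RefSeq on GRCm38.p6). Capitals mark 2 overlapping matches, on opposite strands, to the letters TATAA, at positions 220 and 223 counted from the 5′ end.
Slc22a8: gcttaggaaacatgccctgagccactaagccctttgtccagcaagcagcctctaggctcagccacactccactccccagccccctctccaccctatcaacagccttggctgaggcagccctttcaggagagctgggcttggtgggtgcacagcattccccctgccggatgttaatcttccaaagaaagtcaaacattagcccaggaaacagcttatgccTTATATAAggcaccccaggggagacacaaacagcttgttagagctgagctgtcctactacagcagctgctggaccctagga
TATAA was present in 24.9% of all promoters, and a match describes these letters and does not show a site in use.

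Levels came first by role. Values are CPM of the counts summed over all 1187 cells, with 95% exact Poisson intervals; the share of cells with a read is given with every cell thinned to 100000 reads and a 95% exact Clopper-Pearson interval. Both intervals cover counting error only, since Smart-seq2 reads are not independent molecules. Comparison of levels between genes uses CPM per kb of merged exon.

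Abcb1a (chromosome 5, 8660077 to 8748575, plus strand, GRCm38 with GENCODE M21 annotation) stood at 1065 CPM (1062 to 1068) and ranked 69 of 46517 genes. In 99.0% of thinned cells there was an Abcb1a read (98.2% to 99.5%), and 99.5% did with all reads. The middle cell had 1016 CPM and the highest 3823 CPM, and 10% of cells lay at or under 387.4 CPM, so nearly every cell carried the transcript and few carried much more than the rest. Its close relative Abcb1b stood at 5.30 CPM, 0.498% of Abcb1a. Of the windows of 50 bases in the longest Abcb1a transcript, 15.5% also occur in Abcb1b and 2.57% in Abcb4, so a part of each gene's reads could be assigned to the other, and the low value of Abcb1b is uncertain. The exons of Abcb1a also overlap those of Gm42686, a gene on the opposite strand, by 553 bases, where reads cannot be told apart without strand.

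Abcg2 (chromosome 6, 58584523 to 58695676, plus strand) reached 1186 CPM (1183 to 1189), rank 58, and was read in 97.2% of thinned cells (96.1% to 98.1%) and in 98.6% with all reads. Its median of 1179 CPM and maximum of 3787 CPM were near those of Abcb1a, but its lower tail reached further down. On plates 521 to 524 the 5th percentile of cells was 20.7, 267.9, 8.08 and 26.6 CPM for Abcg2. For Abcb1a it was 171.0, 315.5, 218.8 and 370.8 CPM. Abcc4 (chromosome 14, 118482692 to 118706219, minus strand) was the lowest of the 3 pumps at 437.7 CPM (435.7 to 439.7), and 85.8% of thinned cells had a read (83.7% to 87.8%), against 89.0% with all reads. Its transcript was less evenly spread: 131 cells had none, the median was 349.1 CPM and the highest cell had 3278 CPM, and the 10% of cells with most Abcc4 held 31.9% of its reads, where the same share was 21.0% for Abcb1a and 21.3% for Abcg2.

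Slco1a4, the transporter known as Oatp1a4 or Oatp2 (chromosome 6, 141805440 to 141856199, minus strand), was the most abundant of the 8 at 3608 CPM (3602 to 3613). It ranked 4 of all genes, was read in 99.2% of thinned cells (98.5% to 99.6%) and in 99.9% with all reads, and was at 0 in 1 cell. It was also the most even: the top 10% of cells held 17.3% of its reads, and cells ran from a median of 3741 CPM to a maximum of 8333 CPM. Slco1c1, the thyroxine transporter Oatp14 of brain capillaries in rodents (chromosome 6, 141524368 to 141570177, plus strand), stood at 1607 CPM (1603 to 1611), rank 34, and was read in 96.0% of thinned cells (94.8% to 97.1%) and in 98.1% with all reads.

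Slco2b1, which carries steroid sulfates and many drugs (chromosome 7, 99657804 to 99711340, minus strand), was at 543.3 CPM (541.1 to 545.5). Of all cells, 76.2% had a read at fixed depth (73.7% to 78.6%) and 80.8% with all reads, and 228 cells had none, so the gene split the cells more than Slco1a4 or Slco1c1 did. Its cell values had a median of 389.4 CPM and a maximum of 3413 CPM. The exons of Slco2b1 overlap those of the antisense gene Gm15635 by 471 bases; whether reads were counted by strand is not given in the sources, and reads of the pair cannot be told apart there. Gm15635 held 18139 reads, 7.97% of the number for Slco2b1.

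Slc22a8, the OAT3 gene (chromosome 19, 8591254 to 8611835, plus strand), stood at 953.2 CPM (950.3 to 956.2), rank 81. It was read in 85.6% of thinned cells (83.5% to 87.5%) and in 90.7% with all reads, and 110 cells had none. Its median cell had 800.7 CPM and the highest 4736 CPM, while 10% of cells lay at or under 2.31 CPM, a wide span for so abundant a transcript. Slco1a5, a close relative of Slco1a4 (chromosome 6, 142234227 to 142322981, minus strand), was rare at 16.1 CPM (15.7 to 16.5), rank 8845, and was read in 6.74% of thinned cells (5.38% to 8.32%) and in 10.5% with all reads.

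Per kb of exon, the order was Slco1a4 at 562.4 CPM per kb, Slco1c1 at 309.9, Slc22a8 at 243.8, Abcb1a at 194.4, Abcg2 at 145.5, Slco2b1 at 91.2, Abcc4 at 68.5 and Slco1a5 at 4.33 CPM per kb. Over the 4 plates Slc22a8 ran from 165.5 to 296.3 CPM per kb, which overlapped Slco1c1 (268.7 to 345.9) and Abcb1a (167.4 to 224.4), so the ranges of these neighbours were not separate. Plate by plate, Slco1c1 stood above Slc22a8 on 4 of 4 plates and Slc22a8 above Abcb1a on 3 of 4. The plate ranges of the other neighbours did not overlap. Taken as sums of reads, the 3 efflux pumps came to 2689 CPM and the 5 Slco and Slc22 genes to 6727 CPM, 2.50 times as much. All 8 together held 0.942% of the reads. These sums are not divided by exon length, so they compare reads and not transcripts. Apart from Slco1a5, all 7 members had a read at fixed depth in 685 cells (57.7%), and 44 cells (3.71%) had a read of 4 or fewer.

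**Figure D1:**
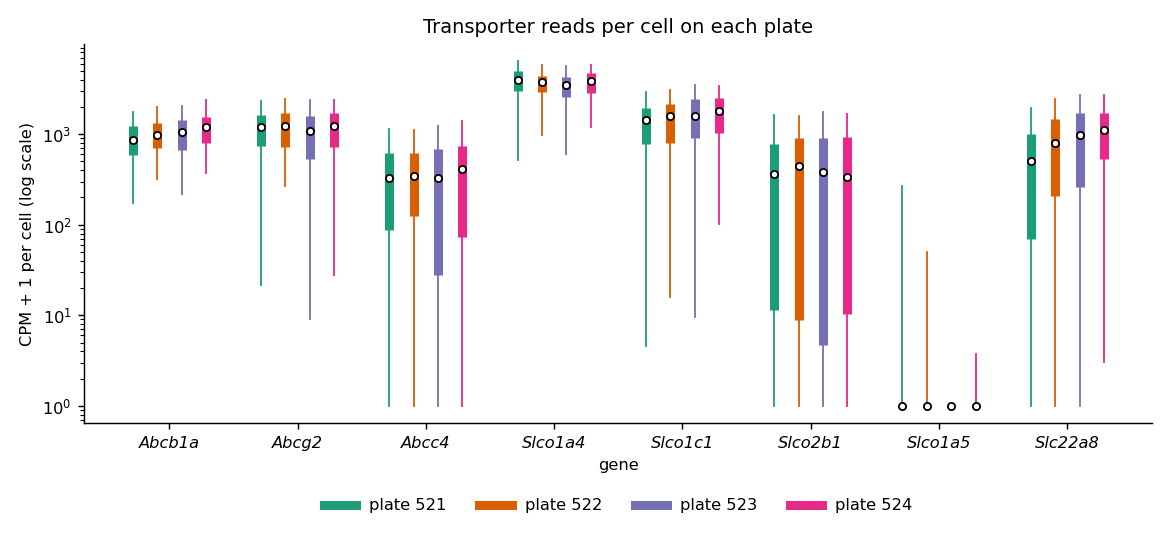
CPM + 1 per cell (log scale) for each of the 8 genes on plates 521 to 524; white points are medians over the cells of the plate, thick bars the middle 50% of cells and thin bars the 5th to 95th percentile. Slco1a4 stands highest and, Slco1a5 aside, has the narrowest thick bars, but not the narrowest thin bars on every plate. Slc22a8, Slco2b1 and Abcc4 reach down to 0 in part of the cells, and Slco1a5 is at 0 in the median cell of every plate.

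Between plates, most of these transcripts were level. Slco1a4 had 3785, 3584, 3373 and 3674 CPM on plates 521, 522, 523 and 524, a highest plate 1.12 times the lowest. Abcg2 had 1181, 1250, 1097 and 1218 CPM, and Slco2b1 509.3, 577.4, 547.1 and 542.6 CPM. Plate 521 was lowest for Abcb1a, with 917.3 CPM against 1035, 1076 and 1230 CPM on the other plates in order, and for Slco1c1, with 1393 against 1554, 1685 and 1794 CPM. Abcc4 had 415.8, 421.2, 425.1 and 486.2 CPM, so that plate 524 stood above 3 plates that were close together.

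Slc22a8 and Slco1a5 differed over 1.5-fold between the highest and the lowest plate, 2 of the 8 members; of the 12428 genes at 5 CPM or more on any plate, 54.0% did so, and of the 951 genes at 200 CPM or more, 25.4%. Slc22a8 had 647.0, 919.8, 1090 and 1159 CPM on plates 521 to 524, a ratio of 1.79. Slco1a5 had 40.3, 20.0, 0.156 and 3.61 CPM, a ratio of 35.7 with 1 CPM added to both sides. The plates also differed in the zones of the vascular tree they held: the summed level of 10 capillary markers was 4520, 6234, 8738 and 8541 CPM and that of 12 venous markers 3123, 2485, 1220 and 1083 CPM on the same plates. When cells of all plates were divided together into 5 equal bins by capillary score (defined below), the cells of the middle bin had 989.5, 990.4, 1019 and 1160 CPM of Slc22a8 on plates 521 to 524. In the bin poorest in capillary markers it had 359.9, 409.8, 279.6 and 197.2 CPM on the same plates, and in the richest 1044, 1553, 1441 and 1546 CPM. The highest plate was thus 1.17 times the lowest in the middle bin, 2.08 times in the poorest and 1.49 times in the richest. The part of the zones in the plate difference was not tested.

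The vascular tree was read from marker genes, none of which is a transporter described here. A cell's artery-to-vein score is its mean z-score, within plate, of log2(CPM + 1) over 15 arterial markers, among them Bmx, Gkn3 and Gja4, less that over 12 venous markers, among them Nr2f2, Vwf and Vcam1. Cells were ranked within each plate and divided into 5 equal bins, from the artery end (bin 1, 237 cells) to the vein end (bin 5, 238 cells). The bins are ranges of a score and not cell types: 214 of the 1187 cells lay within 0.1 of the limits of the 2 end bins. Median depth was 363880 reads in the artery bin and 358872 in the vein bin. A member was called higher or lower at 1.5-fold, with a prior of 1 CPM on both sides.

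Of the 7 abundant members, Slc22a8 differed most along this axis. It was low at the artery end and at nearly full level everywhere else. Its CPM from bin 1 at the artery end to bin 5 at the vein end was 536.1, 1156, 1070, 908.6 and 1112. At fixed depth 62.9% of the cells at the artery end and 92.4% of those at the vein end had a read. The log2 ratio of the artery end over the vein end was -1.05, and on plates 521, 522, 523 and 524 it was -1.63, -1.09, -0.54 and -1.20, so every plate showed the direction. In 10 bins the low values were concentrated at the very end, with 267.9 CPM in the most arterial bin, 794.7 in the next and 1152 in the one after, and 1168 CPM in the most venous. In 3 bins the ratio of the ends was -0.44, under the 1.5-fold mark.

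Slco2b1 had a similar profile. Its CPM over the same 5 bins was 317.9, 644.9, 661.9, 617.7 and 479.8, low at the artery end and highest between the ends. The artery-over-vein ratio was -0.59 on the log2 scale, and -0.98, -0.87, -0.22 and -0.40 on the 4 plates. Slco2b1 passed the 1.5-fold mark narrowly and did not under TMM or DESeq2 scaling of the sums, where the ratio was -0.57. It was also under the mark with 3 bins (-0.34), without plate 521 (-0.47) and without plate 522 (-0.51). In the most arterial of 10 bins it was at 187.8 CPM and 40.7% of cells had a read at fixed depth, against 450.3 CPM and 74.2% of cells in the most venous.

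These 2 members were the ones called lower at the artery end, 2 of 8; over all 12042 genes at 5 CPM or more at either end 12.2% were called lower, and of genes at 200 CPM or more 6.52%. Both were lower on all 4 plates; with that condition added to the 1.5-fold mark, 5.93% of all genes were called lower. The median log2 ratio of the 8 members was -0.26, where that of all genes tested was -0.005. Slco1a4 and Abcg2 did not reach the mark but stood lower at the artery end on all 4 plates. Slco1a4 had 2862 CPM in the artery bin and 3719 CPM in the vein bin (log2 ratio -0.38, plates -0.69 to -0.20). Abcg2 had 932.2 CPM in the artery bin and 1216 CPM in the vein bin (log2 ratio -0.38, plates -0.55 to -0.17).

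Abcb1a was slightly lower at the artery end on all 4 plates, and Abcc4 had no direction shared by the plates. Abcb1a had 989.4 CPM in the artery bin and 1086 CPM in the vein bin (log2 ratio -0.13, plates -0.28 to -0.04), and Abcc4 had 457.6 CPM in the artery bin and 452.5 CPM in the vein bin (log2 ratio 0.02, plates -0.09 to 0.09). Slco1c1 leaned the other way, with 1616 CPM in the artery bin and 1377 CPM in the vein bin (log2 ratio 0.23, plates -0.05 to 0.38). Its lowest value lay at the far vein end: of 10 bins the most arterial had 1503 CPM and the most venous 1050 CPM. Slco1a5 was called higher at the artery end, 1 of 8 members where 13.5% of all genes were, with 24.5 CPM there and 11.0 CPM at the vein end (log2 ratio 1.09). This call rested on plate 521: the plates gave 2.43, -0.81, 0.12 and -1.15, and without plate 521 the ratio was -0.84.

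Capillary endothelium was read in the same way from 10 markers, among them Mfsd2a, Tfrc, Car4 and Slc16a1. Cells within 0.1 of the limits of the end bins numbered 286 of 1187, and median depth was 370780 reads in the marker-rich bin and 359916 in the marker-poor bin. The 2 scores overlap. Arterial markers summed to 2122 CPM in the marker-poor and 470 CPM in the marker-rich bin, and venous markers to 2496 and 1448 CPM. Capillary markers summed to 5496 CPM at the artery end, 8586 CPM in the next bin and 5750 CPM at the vein end. Differences along the 2 scores are therefore not separate results. Slc22a8, Slco2b1 and Slco1c1 were higher in cells rich in capillary markers. They were 3 of the 8 members, where 10.6% of the 12041 genes tested, and 8.73% of those at 200 CPM or more, were called higher. All 3 were higher on each of the 4 plates; with that condition added to the mark, 5.21% of the genes tested were called higher. No member was called lower, where 16.2% of all genes were. The median log2 ratio of the members was 0.43, against -0.05 for all genes tested.

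Slc22a8 increased over every step of the capillary score, with 421.3, 752.6, 974.9, 1224 and 1373 CPM from the marker-poor bin 1 to the marker-rich bin 5. The share of cells with a read at fixed depth was 55.5% in bin 1 (95% interval 48.9% to 61.9%) and 98.7% in bin 5 (96.3% to 99.7%). The log2 ratio of the marker-rich over the marker-poor end was 1.70, and 1.78, 2.04, 1.80 and 1.39 on plates 521 to 524. On plate 521 it had 1054 CPM in marker-rich cells and 305.7 CPM in marker-poor cells, and on plate 524 1583 CPM in marker-rich cells and 604.0 CPM in marker-poor cells. No other member reached a ratio of 2-fold.

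Slco2b1 had 341.7, 455.0, 543.0, 700.9 and 669.7 CPM from bin 1 to bin 5, a log2 ratio of 0.97 between rich and poor end (1.12, 0.84, 1.43 and 0.65 on the plates). The share of cells with a Slco2b1 read was 84.4% at the marker-rich end (79.1% to 88.8%) and 54.2% at the marker-poor end (47.6% to 60.7%). Slco1c1 had 1220, 1456, 1705, 1752 and 1886 CPM from bin 1 to bin 5, a log2 ratio of 0.63 (0.64, 0.71, 0.84 and 0.39 on the plates). It was called by a small margin: without plate 523 the ratio was 0.56, under the mark, and with a score that left out the capillary markers Mfsd2a, Slc16a1, Tfrc and Slc16a4, which are themselves transporters or receptors, it was 0.47. Under that score Slc22a8 was at 1.34 and Slco2b1 at 0.88.

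Slco1a4 followed with 3953 CPM in marker-rich and 2775 CPM in marker-poor cells, a log2 ratio of 0.51 (plates 0.27 to 0.81); TMM and DESeq2 scaling gave 0.60, past the mark. Abcg2 had 1225 CPM in marker-rich and 955.9 CPM in marker-poor cells (log2 ratio 0.36, plates 0.06 to 0.69). Abcb1a had 1113 CPM in marker-rich and 893.4 CPM in marker-poor cells (log2 ratio 0.32, plates 0.13 to 0.47). These 3 stood higher in marker-rich cells on all 4 plates, by less than 1.5-fold. Abcc4 was without a direction shared by the plates, at 427.9 CPM in marker-rich and 404.4 CPM in marker-poor cells (log2 ratio 0.08, plates -0.33 to 0.55), and Slco1a5 likewise (log2 ratio -0.15, plates -1.23 to 3.94).

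The 7 abundant members had a read in the same cell, at fixed depth, in 26.5%, 54.6%, 66.2%, 70.9% and 70.5% of the cells from the marker-poor to the marker-rich bin. Of the 44 cells with a read of 4 or fewer members, 34 lay in the marker-poor bin and 0 in the marker-rich one, which with 237 cells allows a share of up to 1.27%. Along the artery-to-vein score the 7 were found together in 40.5% of cells at the artery end and 60.9% at the vein end.

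Summed markers of other cell types moved with these bins. Whether this is RNA of other cells, and its part in the result, was not tested. The 7 pericyte markers summed to 75.9 CPM in cells rich in capillary markers and 24.6 CPM in cells poor in them, and the 6 astrocyte markers to 293.5 CPM in the rich and 117.3 CPM in the poor cells; the 7 microglial markers went the other way, with 97.4 CPM in the rich and 143.1 CPM in the poor cells. Over all cells the astrocyte markers summed to 229.5 CPM, of which Gja1 alone held 185.3 CPM, with a read in 43.2% of cells. That sum therefore rests mainly on 1 gene. At the artery end the 6 fibroblast markers summed to 60.2 CPM, against 3.49 CPM at the vein end. Without the 22 cells that carried markers of another cell type, the log2 ratio of Slc22a8 was 1.70 along the capillary score and -1.08 from artery to vein, and that of Slco2b1 was 0.98 and -0.64. Genes read per cell at fixed depth had a median of 3674 in capillary-rich and 3520 in capillary-poor cells, and of 3809 in the artery bin and 3931 in the vein bin.

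**Figure D2:**
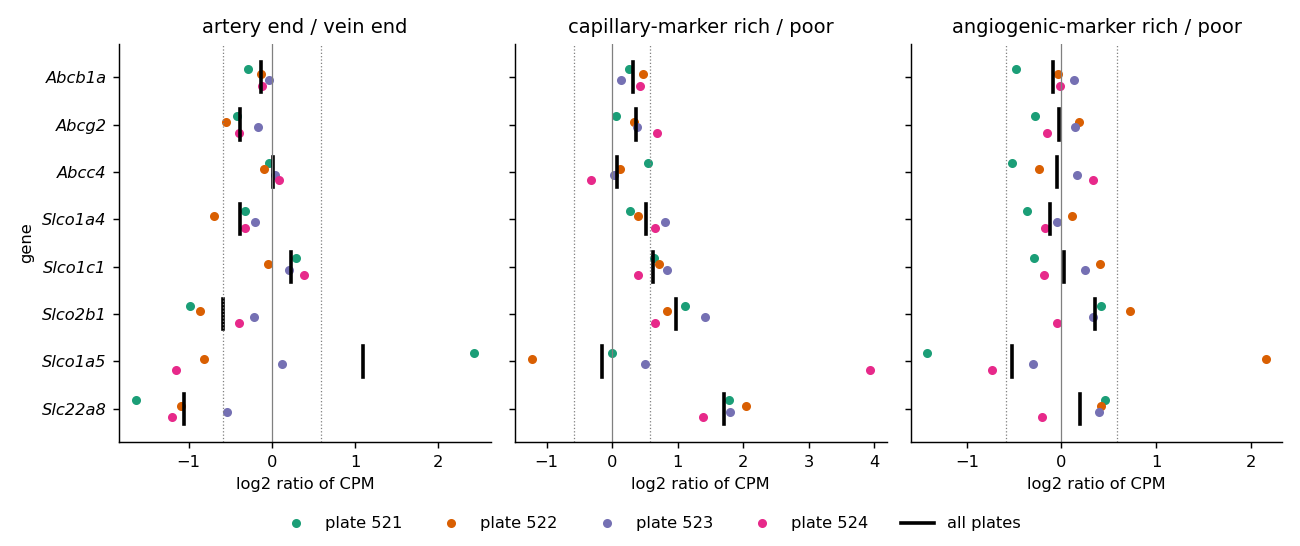
Log2 ratio of CPM (x axis) for each member (y axis): artery end over vein end in the left panel, capillary-marker-rich over marker-poor end in the middle panel and angiogenic-marker-rich over marker-poor end in the right panel. Coloured points are the 4 plates, black bars all cells together and dotted lines the 1.5-fold mark; the Slc22a8 points lie left of 0 in the left panel (-1.63 to -0.54) and right of 1 in the middle panel (1.39 to 2.04), while the Slco1a5 points spread to both sides of 0 in all 3.

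Angiogenic markers, which mark sprouting endothelium (13 genes, among them Angpt2, Apln and Esm1), went with no call among the transporters. Of the 8 members, 0 were called lower and 0 higher at the marker-rich end, where 10.9% of all 12069 genes tested were called lower and 11.1% higher. Of the 1187 cells, 579 lay within 0.1 of the limits of the end bins. This score had a narrower scale, with an SD of 0.35 against 0.47 for the capillary and 0.72 for the artery-to-vein score. The summed angiogenic markers stood at 2758 CPM in the marker-rich and 272.2 CPM in the marker-poor bin. Slco2b1 had 637.5 CPM in marker-rich and 498.0 CPM in marker-poor cells, a log2 ratio of 0.36 (plates -0.04 to 0.72). Abcb1a, Abcg2, Abcc4, Slco1a4 and Slco1c1 lay between -0.13 and 0.03, and Slc22a8 was at 0.20 with 1071 CPM in marker-rich and 934.3 CPM in marker-poor cells. Slco1a5, at 12.1 CPM in marker-rich and 17.9 CPM in marker-poor cells, had a ratio of -0.53 whose plates ran from -1.42 to 2.16.

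Single markers gave the same picture without a score. For each marker with a read at fixed depth in 5% to 95% of cells, cells with a read were set beside cells without one. Slc22a8 was lower in cells with a read of 12 of the 13 arterial markers so examined. In the 282 cells with a read of Bmx, a kinase of arterial endothelium, Slc22a8 stood at 498.1 CPM, against 1095 CPM in the 905 cells without, a log2 ratio of -1.13 with the same direction on all 4 plates. In the 127 cells with a read of Gja4, an arterial connexin, it stood at 353.6 CPM, against 1026 CPM in the other 1060 cells. The exception was Dll4, a Notch ligand read in 670 cells, with 981.7 CPM in cells with a Dll4 read and 915.7 CPM in cells without.

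Slco2b1 was likewise lower with 12 of the 13 arterial markers, Dll4 again apart. In the 78 cells with a read of Vegfc, a growth factor of lymphatic vessels, it stood at 170.1 CPM, against 569.6 CPM in the other 1109 cells. With venous markers these genes had no common direction: Slc22a8 was lower with 5 of 9 and higher with 4, and Slco2b1 the same. With angiogenic markers Slc22a8 was lower with 5 of 7 and higher with 2, and Slco2b1 was higher with 5 of these 7 and lower with 2. The angiogenic score, made within plate, gave a log2 ratio of 0.20 for Slc22a8. Angiogenic markers summed to 1885 CPM on plate 521 and 728.5 CPM on plate 524, where Slc22a8 stood at 647.0 and 1159 CPM. The part of plate in the single-marker direction was not tested. Of 9 capillary markers, 8 went with higher Slc22a8 and 8 with higher Slco2b1; the exception for both was the chemokine Cxcl12. Cells with a read of Car4, a carbonic anhydrase of capillary endothelium, had 1195 CPM of Slc22a8 (746 cells) and cells without had 557.1 CPM (441 cells).

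With plates pooled, Slco1c1 was the member with the same direction for every venous marker examined. It was lower in cells with a read of each of the 9 venous markers examined, by log2 ratios between -0.41 and -0.11, and higher with each of the 9 capillary markers. In the 188 cells with a read of Nr2f2, a transcription factor of venous fate, Slco1c1 stood at 1255 CPM, against 1673 CPM in the other 999 cells, with the same direction on all 4 plates. Cells with a read of Mfsd2a, a lipid carrier of barrier capillaries, had 1797 CPM of Slco1c1 and cells without had 1280 CPM. For Abcb1a the log2 ratio ran from -0.29 to 0.02 over the 13 arterial markers, from -0.21 to 0.02 over the 9 venous, from -0.02 to 0.30 over the 9 capillary and from -0.35 to 0.04 over 7 angiogenic markers.

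Within a plate, members were compared cell by cell through Spearman's rho at fixed depth, averaged over the 4 plates. These are descriptions with between 285 and 312 cells a plate, which share library preparation and depth, and no p is given. Of the 28 pairs, 5 had a mean rho of 0.2 or more. The 5 pairs were Abcg2 with Slco1a4 (0.30, plates 0.15 to 0.45), Slco1a4 with Slco1c1 (0.27), Slco1a4 with Slc22a8 (0.25), Abcb1a with Slco1a4 (0.21) and Slco2b1 with Slc22a8 (0.21). Slco1a4 was thus in 4 of the 5. It is also the most abundant member, and the part of its level in these values was not tested. Among the pumps rho was low, at 0.15 for Abcb1a with Abcg2, 0.09 for Abcb1a with Abcc4 and 0.05 for Abcg2 with Abcc4. The values of Abcb1a still lay above those of most genes, as 95% of the 5552 genes had a rho with it under 0.052. For Abcg2 that limit was 0.064, and its rho with Abcc4 lay below it. Abcc4 had a rho of 0.01 with Slco1a4 and no pair at 0.1 or more.

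**Figure D3:**
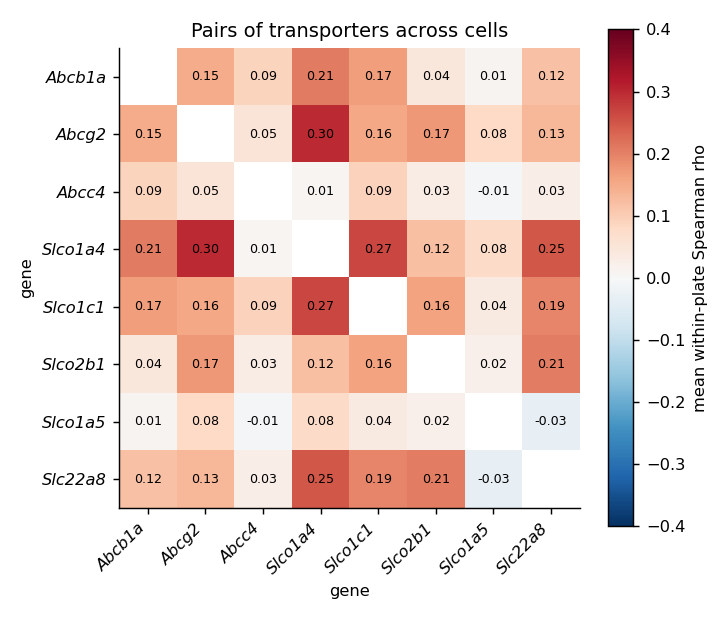
Mean within-plate Spearman rho across cells (colour) for each pair of the 8 genes, at 100000 reads per cell. Slco1a4 forms the pairs with the highest values, up to 0.30 with Abcg2, and Abcc4 and Slco1a5 are pale against all others.

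The genes most like each member in pattern over cells were taken from 5552 genes with a read in at least 25% of cells at fixed depth, and are named where the mean within-plate rho was at least 0.3. For Slc22a8 they were Tfrc, the transferrin receptor (0.42), Bsg, the basigin gene (0.41), and Car4 (0.41), where 95% of candidate genes lay under 0.085. For Slco1a4 they were Itm2a, a membrane protein gene (0.37). For Slco1c1 it was Mfsd2a (0.30), and for Slco2b1 it was Slc7a5, the large neutral amino acid transporter (0.32), after the antisense gene Gm15635 (0.83), whose exons overlap it. For Abcb1a it was RP23-162P5.1 (0.62), a locus that the annotation used here does not hold. Abcg2, Abcc4 and Slco1a5 had none, the pair of Abcg2 and Slco1a4 lying just under the mark before rounding.

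The reads of Slco1a5 came mostly from few cells. The 37 cells with 100 CPM or more held 95.8% of its reads, and the highest cell had 1495 CPM. Of these cells, 22 were on plate 521, 14 on plate 522, 0 on plate 523, which with 285 cells allows a share of up to 1.05%, and 1 on plate 524. They were spread over the vascular scores, with 9, 6, 10, 6 and 6 cells from the artery to the vein bin and 9, 8, 8, 7 and 5 cells from the capillary-poor to the capillary-rich bin. Slco1a4 was present in all of them, from 1299 to 6452 CPM with a median of 4113 CPM, against a median of 3732 CPM in the other cells.

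Of the windows of 50 bases in Slco1a5, 3.94% occur in Slco1a4 and 3.11% in Slco1a6; reads there could be assigned to either gene, and their part in these values was not tested. The cells with Slco1a5 had less Slc22a8 within both plates that held them in number. On plate 521 they had 295.8 CPM of Slc22a8, against 676.9 CPM in the other 278 cells, and on plate 522 they had 321.6 CPM, against 950.5 CPM in the other 276. Slco1a4 was 4212 CPM in the Slco1a5 cells of plate 521 and 3749 CPM in its other cells, and 3917 CPM in those of plate 522 and 3567 CPM in its other cells. These cells were picked by their Slco1a5 value after it had been seen, and the values are a description.

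**Figure D4:**
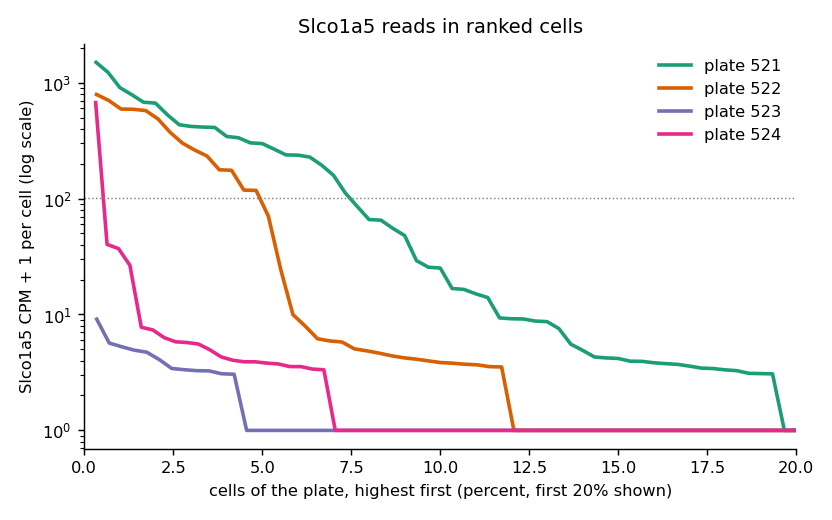
Slco1a5 CPM + 1 per cell (y axis, log scale) against the rank of the cell within its plate (x axis, percent of the plate's cells, highest first), with a line for each plate and a dotted line at 100 CPM. Plates 521 and 522 have 22 and 14 cells above the dotted line, plate 524 has 1 and plate 523 has 0.

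Relatives of the members were mostly low, so that each family was carried by the genes described. Of 10 other pumps of drugs and organic anions, 4 reached 5 CPM: Abcc5 at 68.1 CPM, Abcc6 at 61.0, Abcc1 at 21.2 and Abcb1b at 5.30 CPM. Abcc6 was called higher in capillary-marker-rich cells, with 83.2 CPM there and 39.2 CPM in marker-poor cells (log2 ratio 1.07, plates 0.75 to 1.27). It was 1 of 3 of these pumps measured there, beside 10.6% of all genes tested. From artery to vein 2 of 5 were called higher at the artery end and 1 lower, beside 13.5% and 12.2% of all genes tested. Of 11 other Slco genes, 4 reached 5 CPM: Slco1b2 at 13.0 CPM, Slco6c1 at 6.83, Slco1a6 at 6.25 and Slco3a1 at 5.62 CPM. Slco1a6 and Slco6c1 had a read in 35.6% and 38.6% of cells in spite of these low sums. Along the capillary score 2 of 6 other Slco genes measured were called lower and 0 higher, beside 16.2% and 10.6% of all genes tested. Slco3a1 was 1 of the 2 (1.29 CPM in rich and 14.6 CPM in poor cells). From artery to vein 3 of 5 were called higher at the artery end and 1 lower, beside 13.5% and 12.2% of all genes tested. The 4 named Slco genes stood at 13.0 CPM or less over all cells, near the 5 CPM limit.

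Of 19 other drug uptake genes, 9 reached 5 CPM, led by the carnitine transporter Slc22a5 (47.2 CPM), the nucleoside transporter Slc29a1 (42.9 CPM) and Slc22a17 (32.2 CPM). The others were Slc22a15 (19.1 CPM), Slc29a3 (17.6 CPM), the peptide transporter Slc15a2 (17.3 CPM), Slc29a4 (10.8 CPM), Slc22a23 (6.15 CPM) and Slc22a18 (5.72 CPM). Slc22a8 was therefore the one abundant Slc22 gene of those listed. From artery to vein 4 of the 9 measured at either end were called higher at the artery end (Slc22a4, Slc22a17, Slc22a18 and Slc29a3) and 1 lower (Slc29a1), beside 13.5% and 12.2% of all genes tested. Slc22a17 had 45.2 CPM at the artery end and 22.4 CPM at the vein end.

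Thyroid hormone handling set Slco1c1 beside its partners. The amino acid transporter subunits Slc3a2 (1230 CPM) and Slc7a5 (1198 CPM) were abundant, the receptor gene Thra stood at 97.4 CPM, and Slc7a8 and Thrb at 10.0 and 5.11 CPM. Slc7a5 and Slc3a2 were called higher in capillary-marker-rich cells, 2 of the 6 measured there, and 1 was called lower, beside 10.6% of all genes tested higher and 16.2% lower. Slc7a5 had 1649 CPM in marker-rich and 583.7 CPM in marker-poor cells (log2 ratio on the plates 1.25 to 1.62), and Slc3a2 had 1532 CPM in marker-rich and 802 CPM in marker-poor cells (0.93, plates 0.80 to 1.10). The lower gene was Slc7a8, at 4.67 CPM in marker-rich and 29.2 CPM in marker-poor cells.

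Receptors and regulators of drug-handling genes ranged widely, with 11 of 15 at 5 CPM or more. Ctnnb1, which encodes beta-catenin of the Wnt pathway, stood at 1496 CPM, the glucocorticoid receptor Nr3c1 at 243.5, the stress regulator Nfe2l2 at 223.3 and Foxo1 at 199.2 CPM. The xenobiotic receptor Nr1i3 was at 47.6 CPM with a read in 21.5% of cells and Ahr at 12.7 CPM, and Arnt, Keap1, Rxrb, Rxra and Esr1 lay between 12.4 and 85.0 CPM. Along the capillary score 1 of 12 measured was called higher (Rxrb) and 3 lower (Rxra, Esr1 and Ppara), beside 10.6% of all genes tested higher and 16.2% lower, and each of the 4 stood at under 40 CPM.

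Of 16 enzymes of drug metabolism, 13 reached 5 CPM, led by the monoamine oxidase Maoa (519.7 CPM), the glutathione transferase Gsta4 (354.4 CPM), the aldehyde dehydrogenase Aldh2 (254.9 CPM), Gstm1 (205.8 CPM) and the epoxide hydrolase Ephx1 (200.9 CPM). Cyp2d22 (160.9 CPM), the reductase Por (125.3), the sulfotransferase Sult1a1 (116.8), Gstp1 (66.8), Cyp4b1 (24.9), Gstt1 (12.3) and Nqo1 (6.64 CPM) followed. Along the capillary score 5 of the 15 measured were called higher and 4 lower, beside 10.6% of all genes tested higher and 16.2% lower. Cyp2d22 had 235.1 CPM in marker-rich and 86.4 CPM in marker-poor cells (log2 ratio 1.43, plates 1.24 to 2.37), and Gsta4 had 483.8 CPM in marker-rich and 255.4 CPM in marker-poor cells (0.92, plates 0.59 to 1.39). Ephx1 was the opposite, with 148.8 CPM in marker-rich and 272.7 CPM in marker-poor cells, and with 315.3 CPM at the artery end and 164.6 CPM at the vein end.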

How the data were processed

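Single brain endothelial cells were profiled by Smart-seq2, and the deposited table holds whole-number counts of reads per gene that the authors made from their reads. The submitters' processing notes name featureCounts, Subread 1.4.6-p5, TopHat2 2.1.1 and SAMtools 0.1.18, and as builds mm10 and GRCm38. Whether the counting used strand is not given in the sources. Each of the 1187 columns has its own plate and well name, and 0 names were repeated.

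Cells had to have 50000 reads and 1000 genes, which removed 0. No doublet caller was run. Counts were summed over cells and scaled to CPM with Python 3.11.15, NumPy 2.4.6, SciPy 1.17.1 and pandas 2.3.3; TMM scaling (edgeR 4.0.16) and DESeq2 1.42.0 size factors in R 4.3.3 were alternatives. Log2 ratios used a prior of 1 CPM and a 1.5-fold mark, and genes at 5 CPM or more at either end formed the background. The calculation of the ratios was tried on simulated cells with known folds. Those cells had no plates or vascular zones, so this covers the arithmetic only. Promoters came from RefSeq, where all 8 members matched (14 entries), and were aligned with Biopython 1.88.

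The members, lists, scores and tests were chosen with earlier results of these data known. Named genes are the 8 members, up to 3 genes most like each at a rho of at least 0.3, and genes of the lists at 5 CPM or more over all cells, of which some are not reported here; other genes named in the text, which were chosen after their values were seen, are Cldn5, markers, and list members called along a score. The planned design held for counts, with plates as batches.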

Additional observations from a re-analysis of the deposited data

Results flagged for a closer look

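Abcc4 was marked because its highest plate stands far from the other 3. Plate 524 had 486.2 CPM, and plates 521, 522 and 523 had 415.8, 421.2 and 425.1 CPM, so that the gap to the nearest plate took the share 0.867 of the whole range. The plates are batches of pooled cells and not samples of a group, and such a gap turns up by chance in about 5% of sets of 4 values. Among the 8 members it was the 1 that met this criterion, and its highest plate was 1.17 times its lowest.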

How the results depend on the processing

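No paired analysis was possible because no column carries a genotype or replicate number. The count of members lower at the artery end was 2; it was 0 with 3 bins, 4 with 10 bins, 1 with TMM scaling, 1 with DESeq2 size factors, 1 without plate 522 and 1 at a 2-fold mark. Without plate 521 it was 2, with Slco1a5 in place of Slco2b1. The count higher with capillary markers was 3; it was 6 with 10 bins, 1 at a 2-fold mark, 4 with TMM, with DESeq2 and without plate 521, and 2 with 3 bins, without plate 523 and with the score lacking transporter and receptor markers. The count lower with angiogenic markers was 0, and was 1 with 10 bins and 1 without plate 522, Slco1a5 in both. The count apart between plates was 2, and 1 at a 2-fold mark. The cause of these moves was not tested beyond the margins given in the text. The log2 ratio of Slco1a5 from artery to vein, 1.09, was -0.84 without plate 521. Over 24 log2 ratios and 360 recomputed values, 343 stayed within the plate spread, 16 moved and 1 reversed. A value was counted as reversed only where the main ratio passed 1.5-fold, so changes of sign in smaller ratios are not in that count. The angiogenic ratio of Slco1c1 kept its sign in 9 of 14 recomputed values, and those of Abcc4 and Abcg2 in 10 of 14 each. Slc22a8 ran from -2.12 to -0.44 from artery to vein and from 1.33 to 2.38 with capillary markers, with the same sign each time; Slco2b1 ran from -1.26 to -0.34 and from 0.83 to 1.15. The scores without Slc38a5, and without capillary markers that are transporters or receptors, were added after seeing the data. The plate values of Slco1a5 and of the low members of the lists scatter. For Slco1a5, 37 cells held 95.8% of the reads. The part of depth in this scatter was not tested.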
